A study of Mus musculus with 11 samples.

Results

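Lipid-associated tumor macrophages carry a characteristic set of transcripts, and 10 of its genes were followed here through RNA from sorted regulatory T cells. They are Trem2, Apoe, Lpl, Gpnmb, Spp1, Lyz2, Arg1, Csf1r, Mrc1 and Adgre1, taken by gene symbol from the 14604 genes of the deposited values. All 10 had a row, and all 10 passed the filter on low values (a minimum of 0.5 for the mean of a gene's log2(n + 1) values), as did 13897 genes in all. Each value is the authors' gene-level abundance n, written as log2(n + 1), so that a difference of 1 stands for a 2-fold change of n + 1 and the change of a low gene is understated.

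The study sorted live CD4+GITR+CD25+ cells from MC38 tumors (TI-Tregs) and from the spleens of tumor-bearing mice (spleen Tregs), and sequenced their RNA after depletion of ribosomal RNA. MC38 is a mouse colon adenocarcinoma line. The 11 libraries fall into 3 spleen and 3 tumor libraries of CD177flox/flox mice (WT), and 3 spleen and 2 tumor libraries of CD177flox/flox/FOXP3-CreYFP mice (KO), in which Cre driven by Foxp3 removes Cd177 in cells that express Foxp3. Every mouse carried the MC38 graft and the floxed alleles, so there is no spleen of a tumor-free mouse and no mouse with an unaltered Cd177 gene. By the study's methods the spleens came from the same mice as the tumors. Tumor and spleen libraries thus share animals, while the tests treat all 11 as independent, because the sources used here do not tie a tumor library to its spleen library or say whether animals were pooled. A fit with the replicate number as a block called the same number of the 10 genes between tissues, 9. The labels give no ages. The p-values set a difference against the spread between these libraries, not against that between independent animals.

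None of the 10 genes is known as a marker of the T cell lineage. TREM2 is a surface receptor of macrophages that binds lipids and lipoproteins and signals through the adaptor TYROBP, and macrophages that take up much lipid raise it together with APOE, a lipoprotein ligand, LPL, which splits triglycerides, and GPNMB, a glycoprotein of lysosomes. SPP1 (osteopontin), lysozyme and arginase 1 are products of activated myeloid cells, while the CSF1 receptor, the mannose receptor MRC1 and the adhesion receptor ADGRE1 mark macrophages more widely. In tumors, macrophages of this kind are known from colon carcinoma grafts among others.

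The total of n over all genes was 712832 to 844331 per spleen library and 1103159 to 1304548 per tumor library. The paper gives only an approximate depth in reads, common to all libraries, and the depth of each library is not known. A single row, Gm12896, took 31.4% to 42.4% of n. Cd177 has no row, and the genotypes are therefore those of the labels, unchecked. Of all 13897 genes tested 4988 were called lower in tumor libraries and 5983 higher. Among the genes of the sort and of T cells, 6 of 10 fell in tumor libraries, 2 rose and 2 did not pass the test, with a median difference of -0.41. Their summed level (the log2 of the summed n of a list, plus 1) was 11.09 to 11.28 in spleen and 10.63 to 11.32 in tumor libraries. For Trac, a T cell receptor gene and the highest of that list, spleen libraries stood at 9.45 ± 0.10 (SD, n = 6), and tumor libraries were at 8.89 ± 0.43 (SD, n = 5). Ikzf2 (-1.09), Foxp3 (-0.85) and Cd3e (-0.62) had the largest falls, and Tnfrsf18, which encodes the sort antigen GITR (1.08), and Ctla4 (0.57) rose. The defining markers of the labelled cell type were present in both tissues. Transcripts of other cells were present beside them, which the marker lists given further on describe.

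Stretches upstream of the start site are shown for 4 of the genes that were all higher in tumor libraries. The reference promoters (RefSeq, GRCm38.p6, the build that the submitters call mm10) matched 6 of the 10 genes by symbol, namely Apoe, Spp1, Trem2, Gpnmb, Lyz2 and Mrc1, and where several starts are listed the one nearest the GENCODE gene start was taken. Capitals mark matches to GAGGAA, the core that the myeloid factor PU.1 recognises, or to TGANTCA, the AP-1 element, on either strand. The first 3 stretches hold at least 1 match and the Gpnmb stretch holds none.
Trem2, chr17:48346151-48346400, plus strand: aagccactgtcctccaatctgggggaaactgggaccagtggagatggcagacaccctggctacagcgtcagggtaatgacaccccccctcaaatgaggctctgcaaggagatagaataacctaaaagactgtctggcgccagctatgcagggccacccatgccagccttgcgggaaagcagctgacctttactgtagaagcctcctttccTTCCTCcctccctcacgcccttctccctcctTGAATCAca
Spp1, chr5:104434861-104435110, plus strand: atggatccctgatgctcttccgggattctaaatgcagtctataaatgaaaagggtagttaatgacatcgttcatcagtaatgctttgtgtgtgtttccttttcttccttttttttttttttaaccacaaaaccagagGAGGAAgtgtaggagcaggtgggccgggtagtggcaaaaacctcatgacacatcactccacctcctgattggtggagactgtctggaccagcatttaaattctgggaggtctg
Mrc1, chr2:14229164-14229413, plus strand: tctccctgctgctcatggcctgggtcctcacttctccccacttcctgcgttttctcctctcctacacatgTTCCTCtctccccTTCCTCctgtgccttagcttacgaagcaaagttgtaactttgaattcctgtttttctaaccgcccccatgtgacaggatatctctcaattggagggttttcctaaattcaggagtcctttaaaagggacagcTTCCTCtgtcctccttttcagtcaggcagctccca
Gpnmb, chr6:49036268-49036517, plus strand: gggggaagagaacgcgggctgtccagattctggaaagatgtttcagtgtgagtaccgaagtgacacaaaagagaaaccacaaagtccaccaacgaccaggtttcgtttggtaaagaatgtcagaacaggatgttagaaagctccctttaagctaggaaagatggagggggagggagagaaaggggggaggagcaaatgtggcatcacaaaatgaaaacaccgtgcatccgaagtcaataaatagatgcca

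GAGGAA occurred in 4 of these 6 upstream stretches (Apoe, Spp1, Trem2 and Mrc1, the last with 3 matches), and in 23.3% of the 32851 upstream stretches of the same length in the reference. TGANTCA was found in the Trem2 stretch alone among the 6, against 6.75% of all stretches. Neither TTGCNNAA, a core of C/EBP sites (9.56% of all stretches), nor CACGTG, an E-box (6.02%), occurred in any of the 6. A match describes letters and is no evidence of binding. Spi1, which encodes PU.1, was at 2.48 ± 0.55 (SD, n = 6) over the spleen libraries and at 6.61 ± 0.16 (SD, n = 5) over the tumor libraries. Of the genes that encode C/EBP factors, Cebpa was at 2.81 ± 0.52 in spleen and 6.15 ± 0.26 in tumor libraries. Cebpb was at 5.28 ± 0.19 and 8.91 ± 0.31 (SD, n = 6 and n = 5 for both genes). A link between these levels and the matches was not tested.

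The main question of the design for these genes is how TI-Tregs differ from spleen Tregs. Trem2, Apoe, Gpnmb, Spp1, Lyz2, Arg1, Csf1r, Mrc1 and Adgre1 were higher in tumor libraries by 3.12 to 8.74 on the log2 scale, and Lpl, the remaining gene, did not pass the test. The 9 of 10 called higher by limma at an adjusted p below 0.05 stand beside 43.1% of all genes tested that were called in the same direction, and the median difference of the 10 was 4.93 beside 0.08 over all genes tested. In 9 of 10 genes every tumor library lay above every spleen library, which held for 35.2% of all genes tested. RNA of a whole sample does not tell more cells of a type from more RNA per cell, and this holds for every value given here. Together the 10 genes took 0.0155% to 0.0391% of n in the spleen libraries and 0.671% to 1.23% in the tumor libraries.

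**Figure D1:**
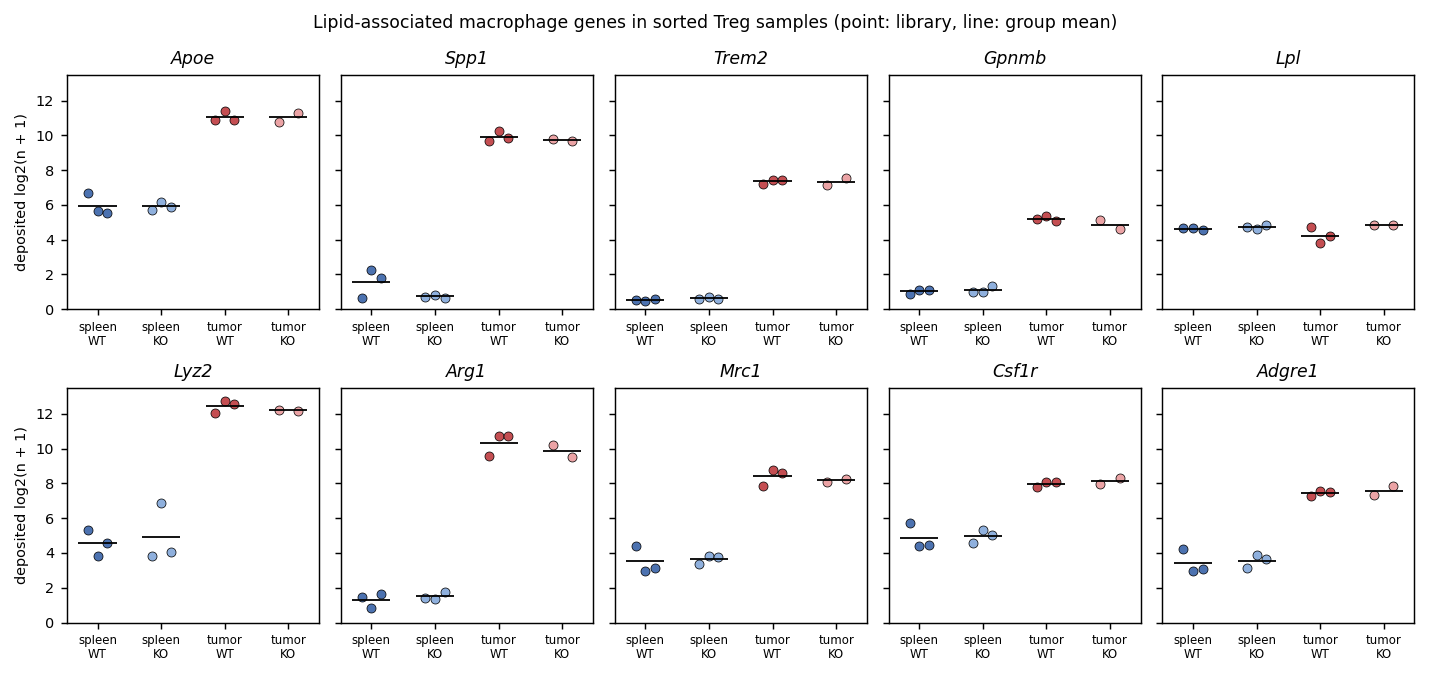
Deposited log2(n + 1) of the 10 genes (vertical axis) in spleen WT, spleen KO, tumor WT and tumor KO libraries (horizontal axis), where each point is a library and each line a group mean. In 9 of the 10 panels all 5 tumor points lie above all 6 spleen points, and the Lpl points overlap.

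Trem2 (chromosome 17, 48346401 to 48354147, plus strand, GRCm38) was near the bottom of the scale in spleen, with a lowest level of 0.48, a median of 0.60 and a highest level of 0.70 over 6 libraries. The tumor WT libraries had Trem2 levels of 7.22, 7.44 and 7.43, and the tumor KO libraries 7.17 and 7.53. All 5 tumor libraries thus lay within 0.36 of each other and far above the spleen. The difference was 6.77 ± 0.08 (SE, limma, adjusted p = 2.51e-14), which ranked 19 of 13897 genes by size of the rise. Tyrobp, the adaptor through which TREM2 signals, differed by 5.0 ± 0.31 (SE, limma, adjusted p = 9.32e-09).

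Apoe (chromosome 7, 19696109 to 19699188, minus strand) encodes a ligand of TREM2 and of lipoprotein receptors. Its level in spleen ran from 5.51 through a median of 5.80 to 6.66, so that it was well above the bottom of the scale there. Tumor WT libraries had 10.88, 11.40 and 10.89, and tumor KO libraries 10.79 and 11.31. The groups did not overlap, and the difference was 5.13 ± 0.19 (SE, limma, adjusted p = 1.39e-10). The lipase gene Lpl (chromosome 8, 68880491 to 68907448, plus strand) behaved otherwise. Its spleen levels ran from 4.56 through 4.67 to 4.86, the tumor WT libraries had 4.70, 3.79 and 4.20, and the tumor KO libraries 4.85 and 4.86. The highest tumor levels were close to the highest of spleen, and only tumor WT replicates 2 and 3 lay below every spleen library.

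For Lpl the difference was -0.20 ± 0.17 (SE, limma, adjusted p = 0.301), with a 95% confidence interval of -0.58 to 0.18, and an exact two-sided permutation test gave p = 0.36. Its call depends on how the libraries are scaled, unlike those of the other 9 genes. Lpl was called lower under quantile normalization (-0.46, adjusted p = 0.032), median centring (-0.42, adjusted p = 0.048) and equal library totals (-0.80, adjusted p = 0.00055), while it was 0.15 higher in tumor without passing the test (adjusted p = 0.51) once each library was centred on its CD3 genes. The median difference of all genes tested went from 0.08 under these 4 scalings to -0.16, -0.14, -0.43 and 0.43. Relative to these medians Lpl was the lower in all 5 versions. The share of genes called higher among all calls moved with them as well, since 5983 genes were called higher and 4988 lower as deposited, against 3286 and 7817 with equal library totals.

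Gpnmb (chromosome 6, 49036546 to 49070929, plus strand) had spleen levels from 0.86 through 1.04 to 1.33. The tumor WT libraries had 5.17, 5.38 and 5.10 and the tumor KO libraries 5.11 and 4.59, so that tumor KO replicate 2 was the lowest of the 5 and still far above the spleen. The difference was 4.0 ± 0.13 (SE, limma, adjusted p = 6.03e-11).

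**Figure D2:**
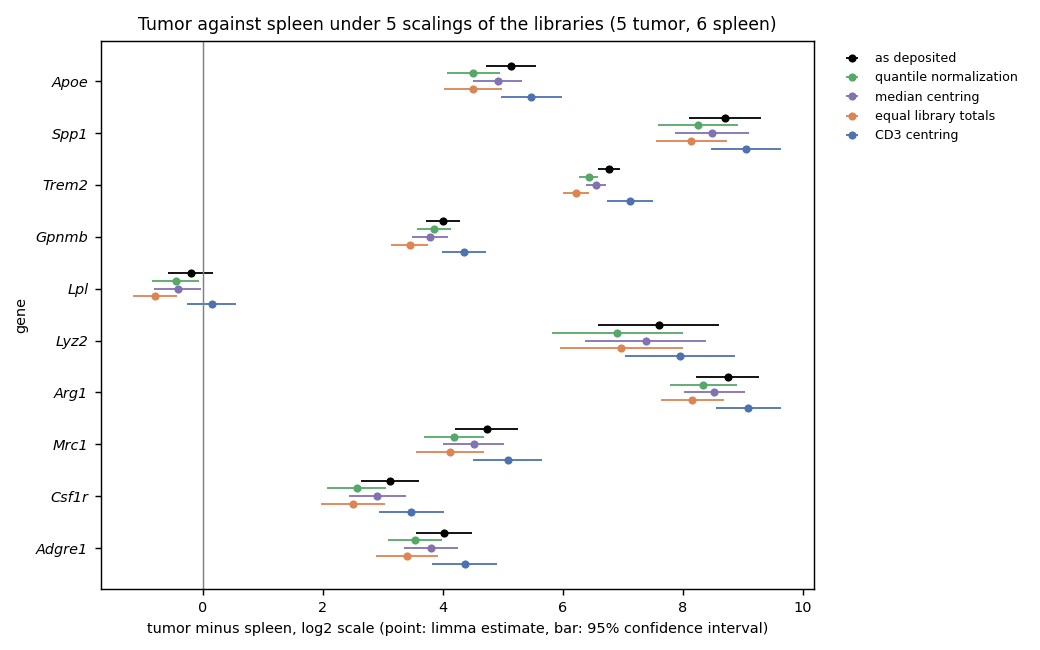
Tumor minus spleen on the log2 scale (horizontal axis; points are limma estimates over 5 tumor and 6 spleen libraries, bars 95% confidence intervals) for each of the 10 genes under the deposited values and 4 other scalings. For 9 genes every interval lies above 0, and for Lpl the estimate runs from -0.80 to 0.15.

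Spp1, Lyz2 and Arg1 encode products of activated macrophages, and they showed 3 of the 10 largest rises among all genes tested, at ranks 3, 10 and 2. Spp1 (chromosome 5, 104435118 to 104441050, plus strand), which encodes osteopontin, had spleen WT levels of 0.67, 2.24 and 1.81 and spleen KO levels of 0.73, 0.85 and 0.65. In tumor it had 9.69, 10.27 and 9.83 in WT libraries and 9.80 and 9.69 in KO libraries. Only spleen WT replicates 2 and 3 were above 1, and the tumor libraries lay close together apart from WT replicate 2. The difference was 8.70 ± 0.28 (SE, limma, adjusted p = 4.37e-11).

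Arg1 (chromosome 10, 24915221 to 24927484, minus strand), which encodes the enzyme that turns arginine into ornithine and urea, had spleen levels from 0.83 through 1.43 to 1.78. Its tumor levels were 9.56, 10.74 and 10.73 in WT libraries and 10.19 and 9.55 in KO libraries. Arg1 thus had a high pair, tumor WT replicates 2 and 3, and a low pair, tumor WT replicate 1 and tumor KO replicate 2. The high pair was WT alone, and the low pair held a library of each genotype. The difference from spleen was 8.74 ± 0.24 (SE, limma, adjusted p = 1.64e-11).

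Lyz2 (chromosome 10, 117277331 to 117282321, minus strand) encodes the lysozyme of macrophages, monocytes and neutrophils. Its spleen WT levels were 5.34, 3.84 and 4.58 and its spleen KO levels 3.83, 6.87 and 4.07. Tumor WT libraries had 12.02, 12.73 and 12.59 and tumor KO libraries 12.24 and 12.16. Spleen KO replicate 2 was the highest spleen library and still far below every tumor library. The difference was 7.60 ± 0.46 (SE, limma, adjusted p = 9.43e-09), the largest standard error among the 10 genes. Spleen KO replicate 2 also had the highest summed level of B cell, CD8 T and NK cell, monocyte and neutrophil, and dendritic cell markers among the spleen libraries (5.47, 5.12, 5.70 and 4.60), and the part of these cells in the result was not tested.

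Lyz1, the Paneth cell lysozyme, is a near copy of Lyz2, and the first 90 coding bases of both are shown because reads of short identical stretches can be shared out between them. Capitals mark the 7 bases at which they differ here (GENCODE release M21).
Lyz2: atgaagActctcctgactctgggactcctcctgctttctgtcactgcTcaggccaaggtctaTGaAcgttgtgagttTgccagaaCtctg
Lyz1: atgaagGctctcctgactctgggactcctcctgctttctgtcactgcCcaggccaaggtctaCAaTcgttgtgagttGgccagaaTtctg
Over the 447 coding bases 95.1% were identical, the longest identical stretch was 118 bases, and 38.8% of the 31-base words of Lyz2 also occur in Lyz1. Lyz1 had levels of 0.22 to 0.84 in spleen and of 3.42 to 4.29 in tumor libraries, a difference of 3.34 ± 0.18 (SE, limma, adjusted p = 3.22e-09). How many of these reads belong to either gene cannot be told from the gene-level values.

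Csf1r, Adgre1 and Mrc1, the surface genes of macrophages in general, were all well above the bottom of the scale in spleen as well. Adgre1 (chromosome 17, 57358691 to 57483527, plus strand) ran from 2.96 through 3.40 to 4.22 in spleen and had tumor levels of 7.30, 7.54 and 7.50 in WT and 7.33 and 7.85 in KO libraries. The difference was 4.02 ± 0.21 (SE, limma, adjusted p = 2.83e-09). Mrc1 (chromosome 2, 14229392 to 14332057, plus strand), the mannose receptor of tissue and alternatively activated macrophages, ran from 2.97 through 3.57 to 4.43 in spleen. Its tumor levels were 7.87, 8.76 and 8.60 in WT and 8.09 and 8.25 in KO libraries, and the difference was 4.73 ± 0.24 (SE, limma, adjusted p = 1.88e-09). Neither gene overlapped between tissues.

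Csf1r (chromosome 18, 61100598 to 61132149, plus strand), the receptor that macrophages need for survival, ran from 4.41 through 4.81 to 5.75 in spleen, and the tumor levels were 7.81, 8.06 and 8.07 in WT and 7.97 and 8.33 in KO libraries. Every tumor library lay above every spleen library, and the difference was 3.12 ± 0.22 (SE, limma, adjusted p = 3.71e-08), the smallest among the 9 genes called. Of its exon bases 873 also lie in exons of Hmgxb3 on the opposite strand, and the sources used here do not say that reads were assigned by strand. Hmgxb3 itself had levels of 3.71 to 3.91 in spleen and 3.60 to 3.71 in tumor libraries (difference -0.14 ± 0.07, SE, limma, adjusted p = 0.072). In Spp1, 309 exon bases are shared with Gm42793 on the same strand, which has no row, and the other 8 genes shared no exon base with another gene in GENCODE release M21.

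The exact two-sided permutation test gave p = 0.0043 for each of the 9 genes, the smallest value that 6 against 5 libraries allow. To set the genes against T cell transcripts of the same library, the mean of Cd3d, Cd3e and Cd3g was taken away from each value. Trem2 then moved from -7.03 ± 0.11 (SD, n = 6) to 0.08 ± 0.44 (SD, n = 5, exact permutation p = 0.0043). Of the 10 genes, 9 had this smallest exact p on the CD3-centred scale, and Lpl differed by 0.15 with an exact permutation p = 0.54. Levels are not compared between the genes themselves, because it is not stated whether n was divided by transcript length. Over all genes tested the median level fell from 4.26 in the shortest to 3.19 in the longest of 4 equal groups by transcript length.

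Within WT, 9 of 10 genes were called higher in tumor (39.2% of all genes tested), and within KO likewise 9 of 10 (36.2% of all genes tested). Arg1, for instance, differed by 9.03 ± 0.32 in WT and by 8.35 ± 0.36 in KO, and Trem2 by 6.82 ± 0.12 and 6.71 ± 0.13 (SE, limma). Lpl was not called in either, at -0.41 ± 0.19 in WT (SE, limma, adjusted p = 0.073) and 0.13 ± 0.21 in KO (SE, limma, adjusted p = 0.60). Under quantile normalization, median centring and equal library totals the WT difference of Lpl was called (-0.66, -0.64 and -0.98), and leaving out tumor WT replicate 1 also gave a call (-0.64, adjusted p = 0.0017). The Lpl difference in KO was called lower with equal library totals (-0.48, adjusted p = 0.041) and higher after centring on the CD3 genes (0.60, adjusted p = 0.031), so its direction there rests on the scaling.

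The loss of Cd177 in Tregs was the other comparison of the design. No gene of the 10 passed the test of whether the tissue difference depended on genotype (0% of all genes tested, limma), and none of the 10 did so at an unadjusted p below 0.05, beside 383 of all genes tested. The interaction ran from -0.68 for Arg1 to 0.64 for Spp1, and the intervals were wide, reaching from -2.83 to 1.66 for Lyz2. In tumor, KO against WT called 0 of the 10 genes (0.0072% of all genes tested, limma), 1 of them and 634 of all genes tested being below 0.05 unadjusted. That gene was Lpl, with 4.85 and 4.86 in KO against 4.70, 3.79 and 4.20 in WT libraries, a difference of 0.62 ± 0.21 (SE, limma, unadjusted p = 0.013, adjusted p = 0.9997). Both KO libraries were above all 3 WT libraries, but 3 against 2 libraries cannot reach an exact p below 0.1.

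In spleen, KO against WT called 0 of the 10 genes (0% of all genes tested, limma), beside 1 of the 10 and 281 of all genes tested below 0.05 unadjusted. Spp1 was the 1 gene, lower in KO by -0.83 ± 0.32 (SE, limma, unadjusted p = 0.025, adjusted p = 0.9997), and its WT libraries themselves were 0.67, 2.24 and 1.81. The interval for Trem2, -0.18 to 0.36 in spleen and -0.31 to 0.28 in tumor, was the narrowest of the 10 in both tissues. That for Lyz2, -1.92 to 1.43 in tumor, was the widest there. Such intervals do not show that the genotypes are alike.

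Variation among the 5 tumor libraries was described for each gene by its standard deviation (SD). The median SD of the 10 genes was 0.28, against 0.21 over all genes tested and 0.18 over the 882 genes with a tumor mean of at least 7. Lpl and Gpnmb had tumor means below 7 (4.48 and 5.07), so those 882 genes do not match them in level. Arg1 varied most, with an SD of 0.59 that was larger than those of 94.9% of all genes tested, followed by Lpl with 0.47 (90.2%) and Mrc1 with 0.36 (81.7%). Trem2 varied least, with 0.15 (30.6%), and Csf1r had 0.19 (44.6%). Among the genes of lipid handling, Trem2 thus had a small and Lpl a large spread over the same 5 libraries, with genotypes pooled. Within tumor WT (n = 3) the SD was 0.46 for Lpl and 0.12 for Trem2. Within tumor KO (n = 2) it was 0.007 for Lpl and 0.25 for Trem2, so the order of the 2 genes was the reverse there.

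**Figure D3:**
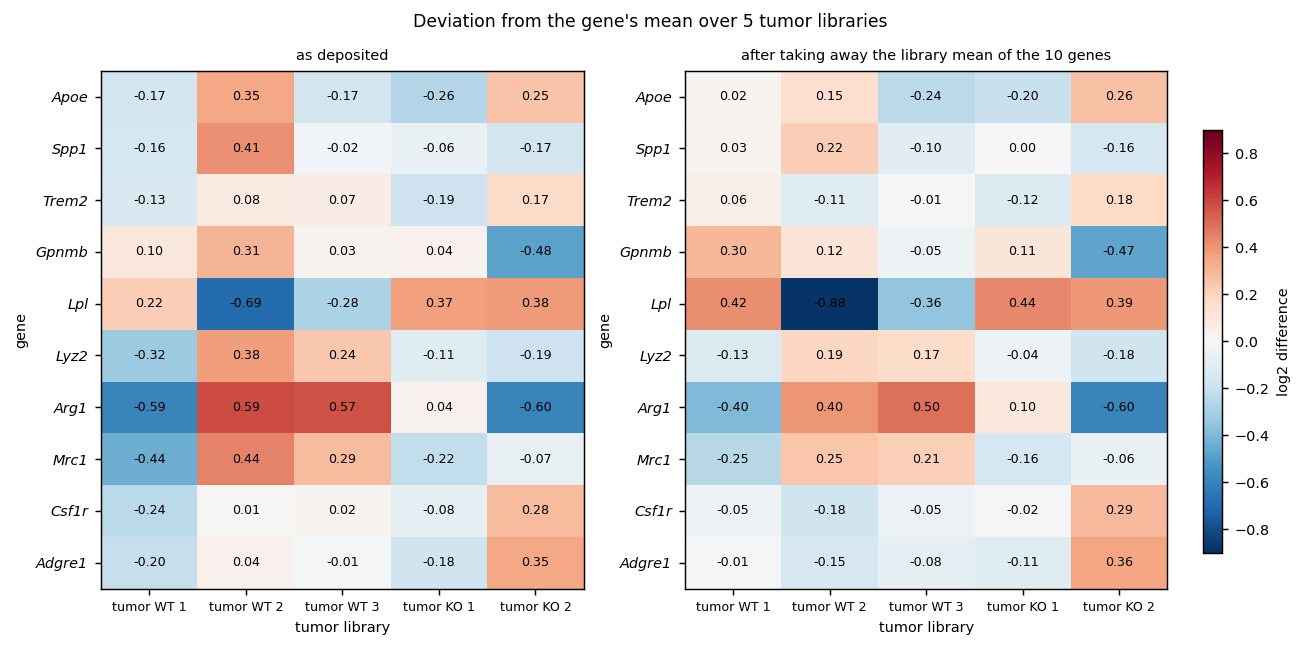
Deviation of each tumor library (columns) from the gene's mean over 5 tumor libraries (rows, log2 difference, red above and blue below), as deposited on the left and after taking away the library's mean over the 10 genes on the right. Arg1 runs from -0.60 to 0.59 as deposited, and Lpl is low at -0.69 in tumor WT replicate 2 where 9 genes are above their mean.

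Tumor WT replicate 2 was above the tumor mean for 9 of 10 genes and the highest library for 6 of them (Apoe, Gpnmb, Spp1, Lyz2, Arg1 and Mrc1), and it was the lowest for Lpl. Tumor KO replicate 2 was the highest for the other 4 (Trem2, Lpl, Csf1r and Adgre1) and the lowest for Gpnmb, Spp1 and Arg1. Tumor WT replicate 1 was the lowest for Lyz2, Mrc1, Csf1r and Adgre1 and was the highest for none. How often each library was highest or lowest over all genes tested was not counted, so these counts have no background. In tumor KO replicate 2 Lpl, Adgre1 and Csf1r lay above their means (0.38, 0.35 and 0.28), where Arg1 and Gpnmb lay below theirs (-0.60 and -0.48).

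Once the library's mean over the 10 genes was taken away, deviations of single genes were left. In tumor WT replicates 2 and 3 Arg1 (0.40 and 0.50), Lyz2 (0.19 and 0.17) and Mrc1 (0.25 and 0.21) were above, and Lpl was furthest below (-0.88 and -0.36). In tumor KO replicate 2 Lpl (0.39), Adgre1 (0.36), Csf1r (0.29), Apoe (0.26) and Trem2 (0.18) were above. Arg1 (-0.60), Gpnmb (-0.47), Lyz2 (-0.18), Spp1 (-0.16) and Mrc1 (-0.06) were below there. Lpl was also above in tumor WT replicate 1 (0.42) and tumor KO replicate 1 (0.44). The SD of Lpl grew from 0.47 to 0.60 by this step and that of Arg1 shrank from 0.59 to 0.48. With 5 libraries no correlation was computed, and a library's mean contains the gene itself.

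Marker lists of some of the cells present moved with these libraries. The summed level of 15 genes of macrophage identity was 11.75 in tumor KO replicate 2, 11.74 and 11.71 in tumor WT replicates 2 and 3, 11.42 in tumor KO replicate 1 and 11.03 in tumor WT replicate 1. The T cell and sort genes went the other way, with 11.32 in tumor WT replicate 1 and 10.63 in tumor WT replicate 2. Of 8 fibroblast markers 4 had a row, and all 4 were called higher in tumor (median 5.93, with Col3a1, a collagen gene, at 8.57), beside 43.1% of all genes tested. Col3a1 and Pdgfrb had spleen means of 0.27 and 0.12 and passed the filter only through their tumor libraries, so only a rise was open to them. The summed levels of the fibroblast markers were 1.10 to 1.64 in spleen and 8.83 to 9.94 in tumor, the last in tumor WT replicate 2. Other lists had other orders. The summed levels of dendritic cell (6.52) and of monocyte and neutrophil markers (8.11) were highest in tumor KO replicate 1. That of CD8 T and NK cell markers was highest in tumor WT replicate 1 (7.68). The part of these cells in the variation of the 10 genes was not tested. On the CD3-centred scale the tumor SD of the 10 genes had a median of 0.50, and tumor WT replicate 1 was the lowest library for 9 of them, with Lpl lowest in tumor WT replicate 2. That scale also holds the spread of the CD3 mean, which was 7.71 in tumor WT replicate 1 and 6.91 to 7.39 in the other tumor libraries. Taking it away lowers every gene most in tumor WT replicate 1.

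In spleen, 6 of the 10 genes had a larger SD than in tumor, against 30.02% of all genes tested, and the median SD was 0.47 against 0.15 over all genes tested. Lyz2 varied most there (SD 1.18, larger than 99.8% of all genes tested), and the SDs of Csf1r (0.54), Mrc1 (0.53), Adgre1 (0.51) and Apoe (0.42) were each larger than those of at least 95% of all genes tested. Trem2 (0.07), Lpl (0.11) and Gpnmb (0.16) hardly varied in spleen, the first and last of them at the bottom of the scale.

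Csf1r, Mrc1 and Adgre1 put the 6 spleen libraries in the same order. From high to low this was WT replicate 1, KO replicate 2, KO replicate 3, KO replicate 1, WT replicate 3 and WT replicate 2, an order shared with 44 other genes for each of them (0.317% of the rest of the genes tested). Apoe differed only by a swap of the last pair. In numbers, Csf1r had 5.75, 5.33, 5.05, 4.56, 4.44 and 4.41 in that order, and Adgre1 had 4.22, 3.87, 3.68, 3.11, 3.06 and 2.96. The order was looked at after the values were seen and mixes the genotypes. In tumor only Spp1 and Arg1 shared an order, and 107 other genes (0.77%) had it too.

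Markers of splenic macrophages stood beside this order. The summed level of 7 genes of red pulp and marginal macrophages was 8.39 in spleen WT replicate 1 and 7.51, 7.81, 7.43, 7.23 and 7.14 in the others, so that it too was highest in the first and lowest in the last. Spleen WT replicate 1 also had the highest sum of erythroid and platelet markers (8.23), and the part of either in the spread was not tested. Between tissues that macrophage list was divided, with Siglec1, Hmox1 and Vcam1 higher in tumor (4.17, 1.83 and 1.53) and Cd5l, Slc40a1 and Spic, which mark red pulp macrophages, lower (-3.37, -3.30 and -2.07). With either spleen WT replicate 1 or spleen KO replicate 2 left out, 9 of 10 genes were still called higher in tumor.

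**Figure D4:**
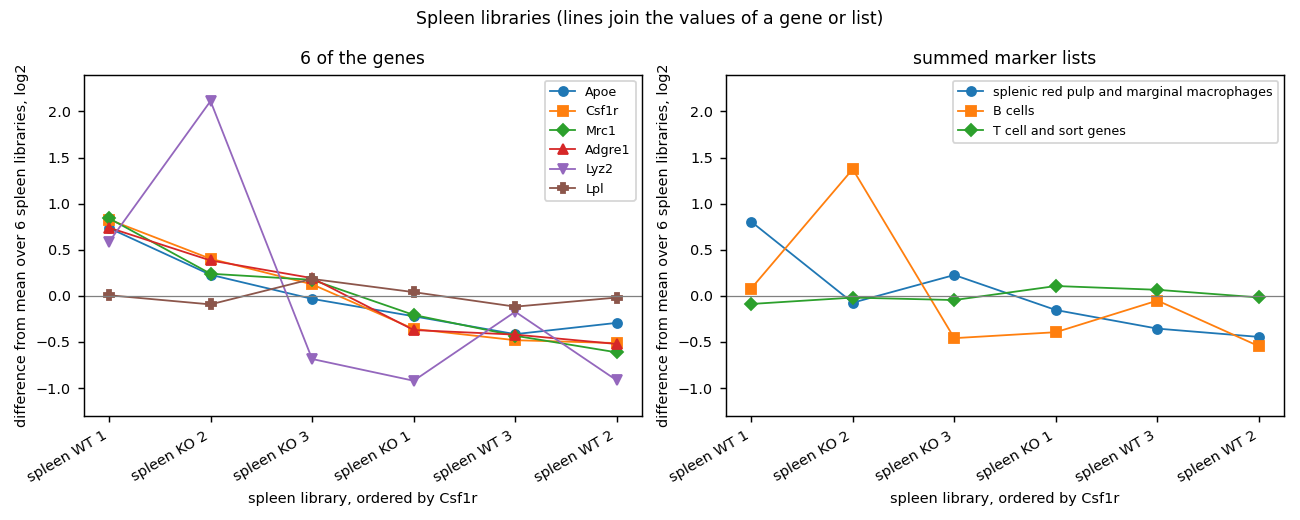
Difference from the mean over 6 spleen libraries on the log2 scale (vertical axis) for 6 of the genes on the left and for the summed levels of 3 marker lists on the right, with libraries ordered by Csf1r (horizontal axis) and lines joining the values of a gene or list. Csf1r, Mrc1, Adgre1 and Apoe descend from left to right, apart from a final step up in Apoe, while Lyz2 and the B cell markers peak in spleen KO replicate 2.

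Genes that work with the 10 were taken from 6 lists by function. The counts of these lists stand beside 43.1% of all genes tested that were called higher in tumor. Among the genes named from them, Msr1, Vldlr, Il34, Nos2 and Folr2 had spleen means under 0.5 and passed the filter only through their tumor libraries. The same holds for Fabp4, which is counted among the lipid handling genes called higher. Of 20 genes of lipid handling and TREM2 signalling, 17 were called higher in tumor and none lower (median 2.73), with 1 to 2 called lower under 3 other scalings (Hcst, and Abcg1 with equal library totals). Msr1, a scavenger receptor for modified lipoproteins, rose by 7.49 ± 0.13, Cd63, a tetraspanin of lysosomes, by 7.19 ± 0.31, and Lgals3, a galectin of macrophages, by 6.48 ± 0.19 (SE, limma, adjusted p = 5.31e-13, 4.09e-10 and 2.32e-11). The 3 genes that did not pass were Hcst (-0.21), Abcg1 (0.13) and Nr1h3 (0.26), the last encoding the sterol sensor LXR alpha. Of the APOE and LPL partners 7 of 10 had a row, and 6 were called higher (median 1.72). Among them Pltp, a phospholipid transfer protein, rose by 5.39 ± 0.18, the receptor Lrp1 by 4.48 ± 0.26 and the receptor Vldlr by 2.28 ± 0.27 (SE, limma, adjusted p = 5.24e-11, 6.38e-09 and 4.73e-06). Lmf1, which LPL needs to mature, did not pass (0.18, adjusted p = 0.228).

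All 15 genes of the CSF1 receptor axis and macrophage identity were called higher (median 3.76). Cd14, a co-receptor for lipopolysaccharide, rose by 8.19 ± 0.31, the Fc receptor Fcgr1 by 5.28 ± 0.14 and the lysosomal Cd68 by 4.73 ± 0.13 (SE, limma, adjusted p = 1.59e-10, 1.37e-11 and 1.74e-11). The ligands of CSF1R were among them, Csf1 at 1.99 ± 0.18 and Il34 at 2.53 ± 0.38 (SE, limma, adjusted p = 3.25e-07 and 4.41e-05). Of 8 osteopontin receptor genes 7 were called higher and 1 lower (median 1.46), the largest rises being those of the integrin genes Itga5 (3.98 ± 0.20) and Itgb5 (3.68 ± 0.21) and of Cd44 (2.04 ± 0.12; SE, limma, adjusted p = 1.86e-09, 5.59e-09 and 5.13e-09). Itga4, an integrin subunit that T cells use to home, fell by 1.60 ± 0.09 (SE, limma, adjusted p = 3.50e-09).

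Of 10 genes of arginine metabolism 8 were called higher and none lower (median 0.94), against 5 higher and 1 lower (Sms) with equal library totals. Slc7a2, an importer of arginine, rose by 5.97 ± 0.27, Nos2, the inducible nitric oxide synthase that competes with arginase for arginine, by 5.58 ± 0.33, and Odc1, which turns ornithine into putrescine, by 3.07 ± 0.09 (SE, limma, adjusted p = 6.23e-10, 7.81e-09 and 2.87e-11). Srm and Sms, the spermidine and spermine synthases, did not pass (0.38 and -0.08). Of the genes of the mannose receptor and alternative activation 6 of 9 had a row, and 4 were called higher (median 2.61). Mgl2, a lectin, rose by 6.58 ± 0.14, the folate receptor Folr2 by 6.01 ± 0.18 and the scavenger receptor Stab1 by 4.24 ± 0.11 (SE, limma, adjusted p = 2.11e-12, 3.04e-11 and 1.43e-11), while Cd163 (0.79, adjusted p = 0.085) and Stat6 (-0.14, adjusted p = 0.105) did not pass.

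**Figure D5:**
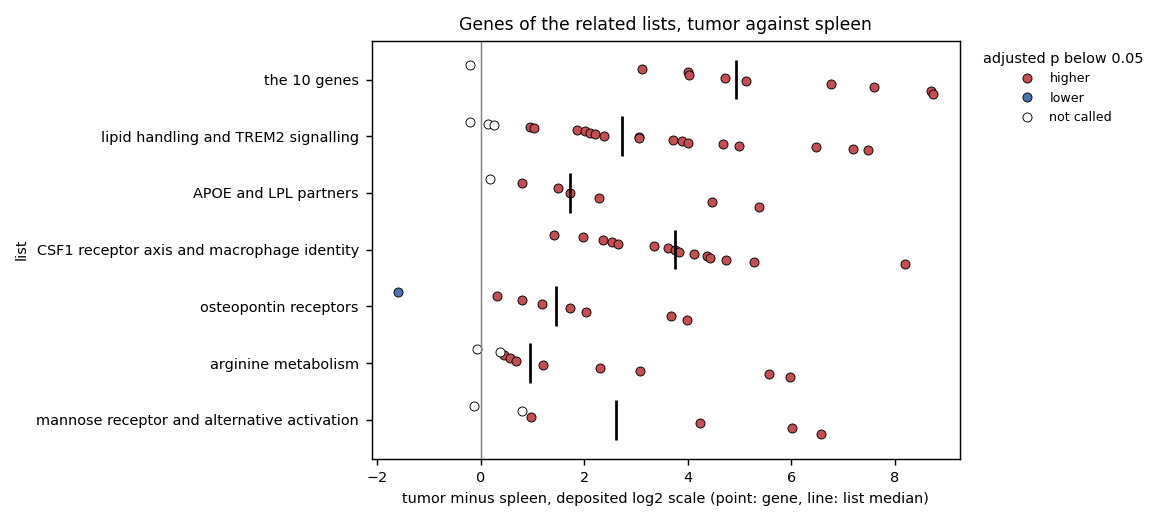
Tumor minus spleen on the deposited log2 scale (horizontal axis) for the 10 genes and for the genes of 6 related lists (vertical axis), where a point is a gene, a line the list median and the colour the limma call. The medians are 4.93 for the 10 genes and 0.94 to 3.76 for the 6 lists, and Itga4 is the 1 gene called lower.

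The counts of the marker lists stand beside 5983 of 13897 genes tested that were called higher in tumor and 4988 called lower. Among markers of other myeloid cells, 3 of 5 listed monocyte and neutrophil genes were called higher (median 2.26, with Ccr2 at 3.65), and 1, Cxcr2, lower (-1.70). Their summed level was 4.88 to 5.70 in spleen and 7.38 to 8.11 in tumor. Of 8 dendritic cell genes 6 were called higher and 2 did not pass (median 0.77), Itgax by 4.53, while Flt3 was at 1.01 ± 0.60 (SD, n = 5) and Xcr1 at 1.68 ± 0.17 (SD, n = 5) in tumor libraries. The osteoclast genes, which share Spp1 and Gpnmb with macrophages, were divided at 2 higher and 2 lower (median 0.34, with Ctsk at 2.78 and Acp5 at -0.71). None of 4 adipocyte markers had a row, so LPL of fat cells could not be looked at. B cell markers were lower in 3 of 4 (median -1.01), CD8 T and NK cell markers higher in 3 of 6 and lower in 1 (median 1.37, Cd8a at 3.99 and Klrb1c at -1.39). Of 3 epithelial markers tested Cdh1 was higher (3.32) and Lgals4 lower (-0.94). Endothelial markers were higher in 2 of 3, Cdh5 at 0.98 and Kdr at 0.75, with Pecam1 lower (-1.72), and erythroid and platelet markers lower in 5 of 6, the exception being Pf4 at 6.34. Cdh5 and Kdr had spleen means of 0.10 and 0.23 and passed the filter only through their tumor libraries. So did Clec9a, counted among the dendritic cell genes called higher, with a spleen mean of 0.37.

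The genes whose course over the 11 libraries came closest to the mean course of the 10, by the root mean square difference of values centred on each gene's mean, were Anxa3 (0.18), Lhfpl2 (0.18), Basp1 (0.18), Fcgr1 (0.19), Lgmn (0.20), Slc15a3 (0.21), Adam8 (0.21), Rnase4 (0.21), C1qb (0.22) and Pltp (0.22). Their tumor minus spleen differences lay between 5.09 and 5.39. For single genes the closest were C1qc for Apoe (0.18), Cxcl16 for Trem2 (0.16), Ctss for Gpnmb (0.25), Fcgr2b for Lyz2 (0.35), Lrp1 for Mrc1 (0.20), Marcks for Csf1r (0.15) and Sirpa for Adgre1 (0.16). The collagen gene Col3a1 was the closest to both Spp1 (0.55) and Arg1 (0.51), at a larger distance than any of these. Lpl came closest to Cxcr3, a chemokine receptor of T cells (0.15), whose own difference was -0.40. The measure is ruled by the tissue difference, which all but Lpl and Cxcr3 share.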

How the data were processed

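The labels' tissue and genotype set the groups. The authors quantified single-end reads by pseudoalignment (kallisto, mm10), passed them to sleuth 0.30.0 (names and versions from the submitters' processing notes), aggregated transcripts by gene symbol and deposited the result as log2 of n + 1 for 14604 genes. Which kallisto version and annotation were used, and how n was scaled, is not given in the sources used here. The paper calls the kallisto output estimated counts, but how n in the deposited values relates to them is not given. No count model was therefore fitted, and the unknown depth of each library allows no counting interval.

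The log2 values were compared as deposited. Genes with a mean of at least 0.5 over the 11 libraries were tested (13897, with 707 left out). A gene with a mean under 0.5 in either tissue passed only through the other, which fixed the direction open to it. Besides the genes pointed out above, this holds for Lyz1 and Lhfpl2, which passed through tumor. It also holds for Cd5l and for the marker genes Mpo and Blk, which passed through spleen. limma 3.58.1 in R 4.3.3 (eBayes with a mean-variance trend) set 5 tumor against 6 spleen libraries, with genotypes pooled. A second model, with 1 mean per group, gave the comparisons within genotype and within tissue and the interaction. A gene was called at an adjusted p (Benjamini-Hochberg over all genes tested) below 0.05. The moderated test took the place of the unpaired t test with Bonferroni correction of the paper's methods because groups are small. Exact permutation tests, two-sided, were run on single genes with scipy 1.17.1. No library was dropped or imputed, and no 2 libraries were identical.

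The 10 genes and the lists were chosen with earlier results of these data known. Other genes were named by rule: near copies and genes with overlapping exons, from each list the 3 largest called differences, those against the majority and the highest marker, and the genes closest in course. Genes of the lists that did not pass the test, the CSF1R ligands, Tyrobp, Spi1, Cebpa, Cebpb and some markers were named after their values were seen. Positions came from GENCODE release M21 and upstream sequences from RefSeq. The fit was tested on simulated data. Alternatives were 5 other scalings, pseudocounts of 0.1 and 5, eBayes without a trend, 2 other filters, Bonferroni correction, genotype as a covariate, a replicate block, fits of a tissue alone and leaving out libraries.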

Additional observations from a re-analysis of the deposited data

Results flagged for a closer look

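Spp1 had a level of 10.27 in tumor WT replicate 2, which stood apart from the other 4 tumor libraries (9.69 to 9.83) by Dixon's test at the 95% level. It was the 1 gap of this size among 40 sets of values (10 genes in each of 2 tissues, as deposited and relative to the CD3 genes), where chance gives about 2. In the same library fibroblast markers had their highest summed level (9.94) and T cell and sort genes their lowest (10.63). Their part in the gap was not tested.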

How the results depend on the processing

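The 9 genes called higher in tumor kept their direction and their call under all 24 alternatives. The number of the 10 called in either direction ran from 9 to 10 for tumor against spleen, from 9 to 10 within WT and from 8 to 10 within KO, where Bonferroni correction gave 8. For the interaction and for KO against WT in either tissue it was 0 under every alternative run. Leaving out single libraries gave counts of 9 with genotypes pooled, 9 to 10 in WT and 9 in KO. The deviations of same-numbered tumor and spleen libraries had correlations of -0.13 to 0.04. Deviations from means of so few libraries, in different tissues, cannot tell whether equal numbers mark the same mouse. The fit with the replicate block also called 9 genes. The difference of Lpl turned to 0.15 after centring on the CD3 genes, and in KO it turned to -0.13 under quantile normalization, -0.074 under median centring, -0.48 with equal totals and -0.43 with equal totals without the 2 most abundant genes, an alternative chosen after seeing the data. The cause was not tested. The median SD of the 10 genes among tumor libraries moved from 0.28 to 0.50 after CD3 centring, a scale that also holds the spread of the CD3 genes. It was 0.25 to 0.30 with each tumor library left out in turn. With single libraries left out, 17 to 18 genes of lipid handling were called higher, 6 to 7 of the osteopontin receptors, 8 to 9 of arginine metabolism and 4 to 5 of the mannose receptor list. Under quantile normalization, median centring and equal totals these were 17, 5 to 6, 5 to 8 and 4, with 1 to 2, 1, 1 and 1 called lower. Of all genes tested 4626, 4831 and 3286 were called higher under these scalings, and 6358, 6219 and 7817 lower. The depth in reads of each library is unknown, and low spleen levels limit the differences of Trem2, Spp1, Gpnmb and Arg1. These differences ran from 4.93 to 8.08, 7.19 to 9.58, 2.62 to 4.78 and 7.41 to 9.36 over the settings.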
